A study of Mus musculus with 6 samples.

Results

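Of 36 genes of fatty acid, glycerolipid and phosphatidylcholine synthesis, 35 could be measured in fetal mouse lungs whose mesenchyme was meant to lack Nfib. That gene encodes nuclear factor I B, a transcription factor of lung development. The genes were chosen by name: every probe set whose platform annotation gives 1 of the 36 symbols was taken, and the annotation gave none for Acsl1, which is not analysed here. This gave 83 of the 45037 probe sets that were not array controls. Of these 83, 69 passed a filter on low signal and 14 did not. Every one of the 35 genes kept at least 1 tested probe set, and the brightest probe set over all arrays stood for its gene.

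The lungs were taken at E18.5 (embryonic day), 1 Affymetrix array for each animal. All 6 animals carried 2 floxed alleles of Nfib (Nfibf/f). The labels give 3 of them Dermo1-Cre in addition (Cre-labelled) and name no Cre for the other 3 (control-labelled). Dermo1-Cre makes Cre recombinase under the Dermo1 (Twist2) gene and acts in mesenchyme, so epithelial cells of the Cre-labelled lungs are not its intended target; no strain or treatment is given. The labels speak of biological replicates without naming litters.

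Lung surfactant is mostly phospholipid, above all dipalmitoyl phosphatidylcholine, and alveolar type II cells make it in large amounts before birth. Fatty acids are built from citrate-derived acetyl-CoA, desaturated or lengthened, and activated to acyl-CoA. They are joined to glycerol through phosphatidic acid and diacylglycerol, which then receives a choline head group from CDP-choline. Lysophosphatidylcholine acyltransferase afterwards exchanges fatty acids to give the disaturated form. Lipofibroblasts, mesenchymal cells next to the type II cells, store neutral lipid and are held to supply lipid precursors.

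In the Cre-labelled lungs the stearoyl-CoA desaturase gene Scd1 fell 3.20-fold, the fatty acid synthase gene Fasn fell 1.45-fold and the phosphatidic acid phosphatase gene Lpin1 fell 1.56-fold. The fatty acid elongase gene Elovl6 rose 2.03-fold. The other 31 genes, among them all 7 genes of the CDP-choline and CDP-ethanolamine routes, did not pass an adjusted p of 0.05 by their brightest probe set. Values are log2 signals as deposited, and a difference is Cre-labelled minus control-labelled, given ± the SE (standard error) of a limma fit over all 27022 tested probe sets, with Benjamini-Hochberg adjustment over all of them. In all, 3 of 35 genes fell (8.57%) and 1 rose (2.86%), beside 3.04% lower and 1.92% higher among all 12826 genes tested in the same way. The median difference of the 35 genes was -0.18, with 26 lower and 9 higher means, against -0.01 over all genes. In each of the 6 fits without 1 array, Scd1 was the 1 gene left among those that fell, and Elovl6 passed in 2 of the 6.

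The labels could not be checked against the arrays, and every direction given here rests on them. The brightest Nfib probe set read 10.24, 10.32 and 10.17 in control-labelled lungs and 11.24, 11.16 and 11.49 in Cre-labelled lungs, higher in the lungs meant to lack the gene (limma adjusted p = 0.0049). Of 6 tested Nfib probe sets, 5 rose, by 1.04 to 1.14, and 1 did not pass, at 9.69, 9.53 and 9.44 against 9.70, 9.35 and 9.29 (-0.11 ± 0.13 SE, adjusted p = 0.71). The sources used here do not say whether any of these probes fall inside the floxed exon. Each array had a trimmed mean signal of 150.04 or 150.05 on the linear scale. Pearson correlations over all probe sets were 0.940 to 0.950 between arrays of a group and 0.931 to 0.949 between groups. The number of arrays limits the precision.

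**Figure D1:**
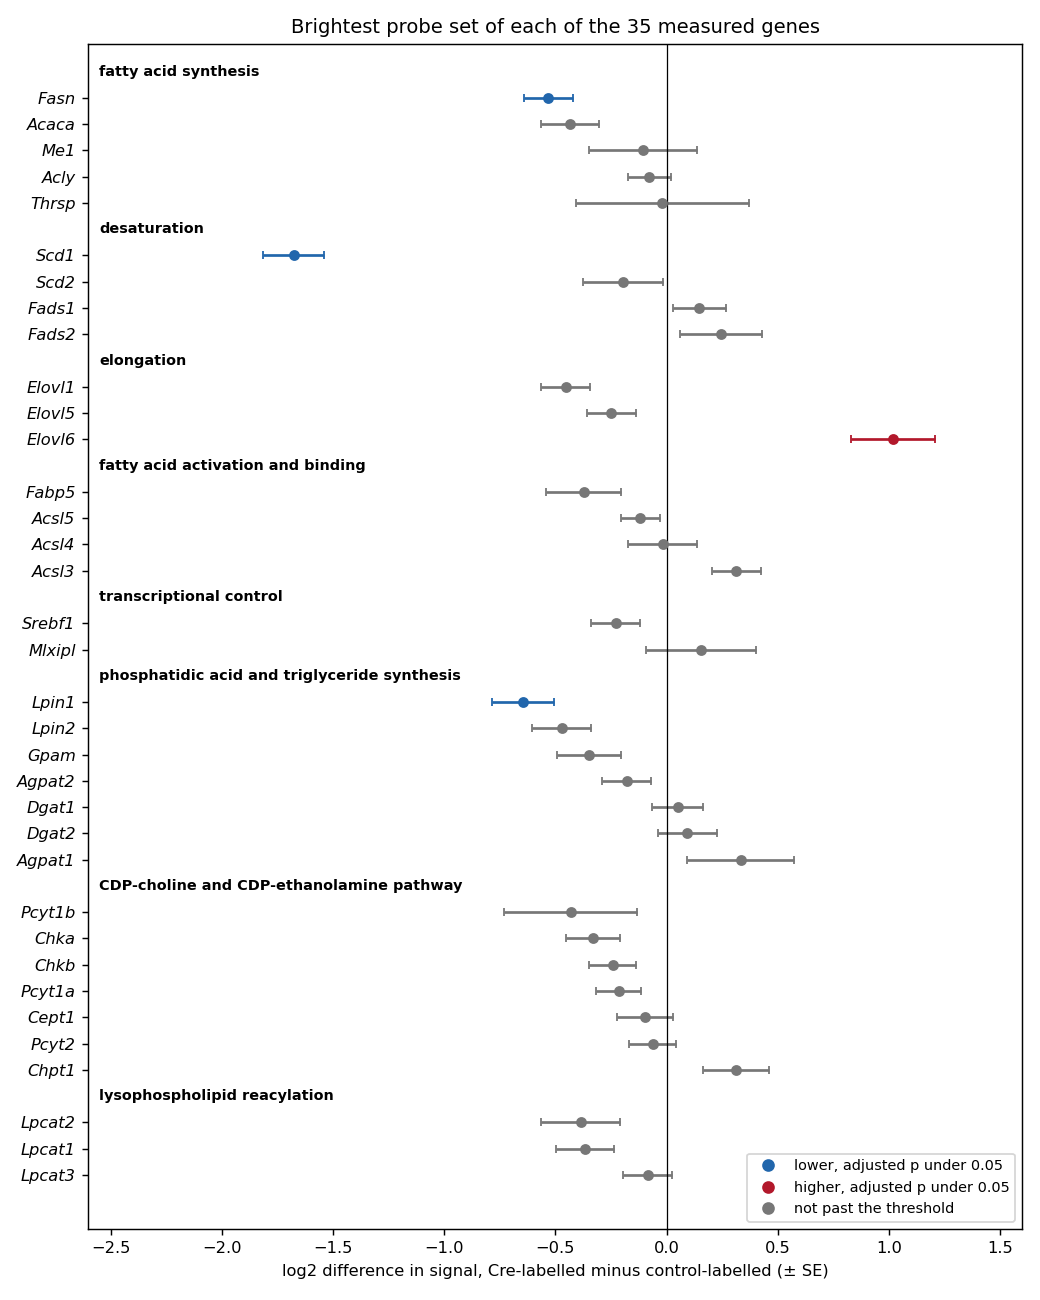
Log2 difference in signal, Cre-labelled minus control-labelled lungs (horizontal axis), for the brightest probe set of each of the 35 genes, ordered by role; points are limma estimates from 3 against 3 arrays and bars are ± 1 SE. Scd1, at -1.68, stands farthest from 0, Fasn and Lpin1 are the other genes past the threshold as lower, and Elovl6, at 1.02, is the gene past it as higher.

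Fatty acid synthesis from acetyl-CoA was represented by 5 genes, all with a lower mean in Cre-labelled lungs, of which 1 fell. Fasn encodes the enzyme that makes palmitate, the main fatty acid of surfactant. Its signal was 10.04, 9.91 and 10.25 on the control-labelled arrays and 9.53, 9.60 and 9.48 on the Cre-labelled arrays. All Cre-labelled values lay below all control-labelled ones. The difference was -0.53 ± 0.11 SE (limma adjusted p = 0.034; group means 10.07 ± 0.18 and 9.54 ± 0.06, SD, n = 3 each), but it did not pass in any fit without 1 array (adjusted p 0.055 to 0.096).

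Acaca, the acetyl-CoA carboxylase that supplies malonyl-CoA to Fasn, read 7.77, 7.75 and 7.69 in control-labelled lungs against 7.15, 7.22 and 7.53 in Cre-labelled lungs. These groups did not overlap either, yet the difference of -0.43 ± 0.13 SE did not pass (limma adjusted p = 0.10). ATP citrate lyase (Acly), which makes cytosolic acetyl-CoA, differed by -0.08 ± 0.10 SE, and malic enzyme (Me1), a source of NADPH, by -0.11 ± 0.24 SE. Thrsp, a lipogenic regulator, averaged 4.06 and 4.04, close to the filter level of 4.0, and its other probe sets lay below that level. Another Acly probe set, at 0.34 ± 0.14 SE, had the opposite sign of its brightest one (limma adjusted p = 0.21).

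Desaturation showed the greatest difference of the 35 genes. Scd1 encodes a desaturase that puts a double bond into stearate and palmitate. Its brightest probe set read 10.93, 11.15 and 11.15 on control-labelled and 9.21, 9.31 and 9.68 on Cre-labelled arrays. The closest arrays of the groups were thus more than 1 log2 unit apart. The difference was -1.68 ± 0.14 SE (limma adjusted p = 0.0021), and Scd1 passed in all 21 alternative fits, with adjusted p from 5.7e-04 to 0.026. The second Scd1 probe set went from 6.07, 6.24 and 6.38 to 5.19, 5.11 and 5.06 and fell as well (-1.11 ± 0.18 SE, limma adjusted p = 0.015). This second call was lost without control-labelled replicate 2 or 3 (adjusted p = 0.0595 and 0.056) and with the mean of the cardiac muscle markers as a covariate.

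Scd2, a paralogue with the same enzyme activity that prevails in many embryonic tissues, read 12.28, 12.49 and 12.82 in control-labelled lungs against 12.21, 12.19 and 12.61 in Cre-labelled lungs. The groups overlapped, with a difference of -0.20 ± 0.18 SE (limma adjusted p = 0.61). Scd1 and Scd2 were also compared within arrays, a pair chosen with the difference of Scd1 known. Within an array, Scd1 minus Scd2 was -1.36, -1.33 and -1.67 on control-labelled and -3.00, -2.88 and -2.93 on Cre-labelled arrays. The mean of this within-array value differed by -1.48 on the log2 scale with no overlap between groups, in a design that cannot reach 0.05 (exact permutation p = 0.10, two-sided, the smallest that 3 against 3 arrays allow; 0.10 after Benjamini-Hochberg adjustment over 3 such pairs). The desaturases of polyunsaturated fatty acids had slightly higher means by their brightest probe sets, Fads1 by 0.15 ± 0.12 SE and Fads2 by 0.25 ± 0.18 SE, without passing the threshold. The other tested Fads2 probe set differed by 0.05 ± 0.21 SE. A dim Fads2 probe set, below the filter and so not tested, averaged 4.09 in control-labelled and 2.54 in Cre-labelled lungs. It was lower by 1.55 without overlap of the groups.

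The elongases differed in direction among themselves. Elovl6, which lengthens palmitate to stearate and so takes away the main surfactant fatty acid, read 6.82, 6.56 and 6.07 in control-labelled lungs against 7.57, 7.40 and 7.53 in Cre-labelled lungs. It rose by 1.02 ± 0.19 SE (limma adjusted p = 0.024), with no overlap of the groups. Its other tested probe set, at 5.37, 4.99 and 5.11 against 6.04, 5.83 and 6.20, had a like difference of 0.86 ± 0.20 SE but lay at an adjusted p of 0.0503. The brightest probe set passed in 15 of 21 alternative fits and stayed positive in all of them. It lost its call without control-labelled replicate 2 or without any 1 of the Cre-labelled arrays (adjusted p 0.054 to 0.079).

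Elovl1, which lengthens long saturated and monounsaturated chains, had 4 tested probe sets, all with a lower mean, and 2 of them fell. The first of these read 9.28, 9.44 and 9.63 against 8.84, 8.81 and 8.26 (-0.81 ± 0.16 SE, limma adjusted p = 0.031). The second read 9.81, 9.87 and 10.05 against 9.32, 9.53 and 9.30 (-0.53 ± 0.11 SE, adjusted p = 0.034). The brightest, at 10.04, 9.99 and 10.21 against 9.57, 9.79 and 9.52, missed the threshold (-0.45 ± 0.11 SE, limma adjusted p = 0.056). Names ending in _x_at, which the brightest and second carry, mark probe sets whose probes can bind other transcripts. Both calls were lost without any 1 of the control-labelled arrays and without Cre-labelled replicate 1 or 3 (adjusted p 0.051 to 0.10).

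Elovl5, an elongase of polyunsaturated chains, read 11.22, 11.41 and 11.43 against 11.03, 11.11 and 11.18 (-0.25 ± 0.11 SE, limma adjusted p = 0.26). Within arrays, the difference between Elovl6 and Elovl1 shifted by 1.47 and that between Elovl6 and Elovl5 by 1.27 on the log2 scale, each with no overlap of the groups (exact permutation p = 0.10, two-sided). These pairs include the genes with the greatest differences and were chosen with those known.

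**Figure D2:**
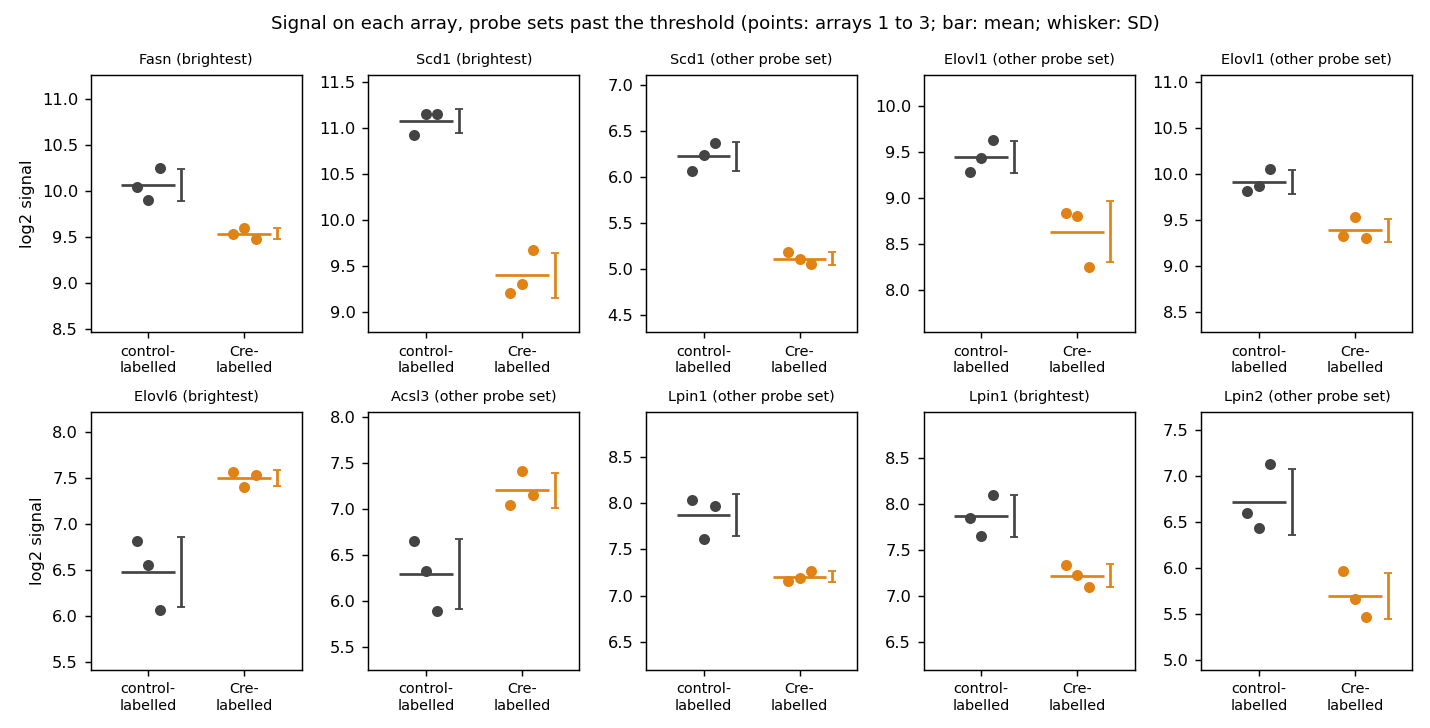
Log2 signal on each of the 3 control-labelled and 3 Cre-labelled arrays (points), with the group mean (bar) and SD (whisker), for the 10 probe sets of these genes with an adjusted p under 0.05; every panel spans the same range of log2 units. The groups do not overlap in any panel, and the gap is widest for the brightest Scd1 probe set.

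Activation and binding of fatty acids involved 4 measured genes, and none passed by its brightest probe set. Acsl3 encodes a long-chain acyl-CoA synthetase found on the endoplasmic reticulum and on lipid droplets. Of its 3 tested probe sets, all higher in Cre-labelled lungs without overlap, 1 rose, from 6.65, 6.33 and 5.89 to 7.04, 7.41 and 7.15 (0.91 ± 0.20 SE, limma adjusted p = 0.043). When 1 array was left out it passed without control-labelled replicate 1 (adjusted p = 0.044) and failed without any of the other 5 (0.086 to 0.12). The brightest probe set went from 7.53, 7.75 and 7.81 to 8.02, 8.05 and 7.96 and did not pass (0.31 ± 0.11 SE, limma adjusted p = 0.16).

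The synthetase genes Acsl4 and Acsl5 differed by -0.02 ± 0.16 SE and -0.12 ± 0.09 SE. Fabp5, a cytosolic fatty acid binding protein, had lower means in both probe sets, by -0.37 ± 0.17 SE in the brighter and by -0.57 ± 0.15 SE in the other (limma adjusted p = 0.26 and 0.077).

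Neither of the 2 transcription factor genes among the 35 passed; Pparg and Cebpa, regulators outside the 35, fell and are described with the other pathway genes. Srebf1 encodes sterol regulatory element-binding protein, which activates Fasn, Scd1 and Elovl6 in other tissues. Its signal was 8.55, 8.56 and 8.82 in control-labelled lungs against 8.41, 8.50 and 8.34 in Cre-labelled lungs. The groups came close without overlapping, and the difference of -0.23 ± 0.11 SE did not pass (limma adjusted p = 0.29). Mlxipl, which encodes the glucose-responsive factor ChREBP, averaged 4.56 and 4.72, near the filter level, with a difference of 0.15 ± 0.25 SE.

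Phosphatidic acid and triglyceride synthesis had 7 measured genes, of which 1 fell. Lpin1 encodes lipin 1, which turns phosphatidic acid into the diacylglycerol that phosphatidylcholine and triglyceride are made from. Its brightest probe set read 7.84, 7.65 and 8.10 in control-labelled lungs against 7.34, 7.22 and 7.09 in Cre-labelled lungs. It fell by 0.65 on the log2 scale (SE 0.14, limma adjusted p = 0.041). The other probe set, at 8.03, 7.61 and 7.98 against 7.15, 7.19 and 7.27, fell by 0.67 (SE 0.14, adjusted p = 0.032). Neither had overlapping groups, but the brightest lost its call in all 6 fits without 1 array (adjusted p 0.056 to 0.115) and the other in all of these but that without control-labelled replicate 2.

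Lpin2, a second lipin gene, had 3 tested probe sets with lower means, of which 1 fell, from 6.61, 6.44 and 7.13 to 5.97, 5.67 and 5.47 (-1.02 ± 0.22 SE, limma adjusted p = 0.039). It passed in none of the 6 fits without 1 array (adjusted p 0.062 to 0.11). The brightest Lpin2 probe set read 8.95, 8.87 and 9.26 against 8.37, 8.61 and 8.69, again without overlap, and did not pass (-0.47 ± 0.13 SE, limma adjusted p = 0.085).

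Gpam, the mitochondrial acyltransferase that starts glycerolipid synthesis, had a difference of -0.35 ± 0.14 SE (limma adjusted p = 0.22), with a dim second probe set of opposite sign. The next acyltransferases of the route were Agpat1, at 0.33 ± 0.24 SE, and Agpat2, at -0.18 ± 0.11 SE. The triglyceride-forming enzymes Dgat1 and Dgat2 had differences of 0.05 ± 0.11 SE and 0.09 ± 0.13 SE, with overlapping groups for both.

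None of the 7 genes of the CDP-choline and CDP-ethanolamine routes passed the threshold, and 6 had a lower mean. Pcyt1a encodes the alpha form of the enzyme that makes CDP-choline, the rate-limiting step of phosphatidylcholine synthesis. Its brightest probe set read 8.88, 8.77 and 8.94 in control-labelled lungs against 8.71, 8.71 and 8.52 in Cre-labelled lungs, lower without overlap (-0.22 ± 0.10 SE, limma adjusted p = 0.28). Another probe set read 8.28, 7.96 and 8.05 against 7.65, 6.96 and 7.41 and lay just short of the threshold (-0.76 ± 0.18 SE, limma adjusted p = 0.052). All 4 tested Pcyt1a probe sets had lower means, between -0.80 and -0.22.

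Choline kinase alpha (Chka), which takes the first step, read 8.72, 8.38 and 8.45 against 8.31, 8.16 and 8.09 (-0.33 ± 0.12 SE, limma adjusted p = 0.17). Its other probe sets, at -0.14 ± 0.43 SE and -0.06 ± 0.26 SE, varied more between arrays of a group. Both were lowest on replicate 2 of each group, at 5.69 and 5.40 in the former and 7.21 and 7.04 in the latter. Choline kinase beta (Chkb) differed by -0.24 ± 0.10 SE, and Pcyt1b, which encodes the beta form, by -0.43 ± 0.30 SE at a signal near the filter level. Pcyt2, of the ethanolamine route, and Cept1, which ends both routes, differed by -0.06 ± 0.10 SE and -0.10 ± 0.13 SE.

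Cholinephosphotransferase (Chpt1), which ends the choline route, depended on the probe set. Its brightest had a higher mean, by 0.31 ± 0.15 SE, and the other 3 had lower means, by -0.40 to -0.34, with no overlap between groups. None of the 4 passed (limma adjusted p 0.20 to 0.36), so no direction is given for Chpt1.

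The 3 genes of reacylation had lower means by their brightest probe sets, and none passed. Lpcat1, the type II cell acyltransferase that makes disaturated phosphatidylcholine, read 11.33, 11.46 and 11.74 by its brightest probe set in control-labelled lungs and 11.20, 11.05 and 11.19 in Cre-labelled lungs. The groups did not overlap (-0.37 ± 0.13 SE, limma adjusted p = 0.16). A pair of other bright probe sets had larger differences, -0.77 ± 0.27 SE and -0.63 ± 0.21 SE, with Cre-labelled replicate 3 lowest, and a dim one, at 0.21 ± 0.30 SE, had the opposite sign. Lpcat2, known from inflammatory cells, differed by -0.39 ± 0.18 SE and Lpcat3, which favours polyunsaturated chains, by -0.08 ± 0.11 SE.

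The difference between the 3' and 5' Actb control probe sets, a sign of RNA or labelling quality, was 0.83 on Cre-labelled replicate 3 and 0.35 to 0.52 on the other arrays. With the 3' to 5' difference of Actb and Gapdh as a covariate, the differences of Scd1, Fasn, Elovl6 and Lpin1 were -1.72, -0.53, 1.04 and -0.64 (limma adjusted p = 0.0024, 0.042, 0.030 and 0.051). Its part in the spread of the Lpcat1 probe sets was not tested.

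**Figure D3:**
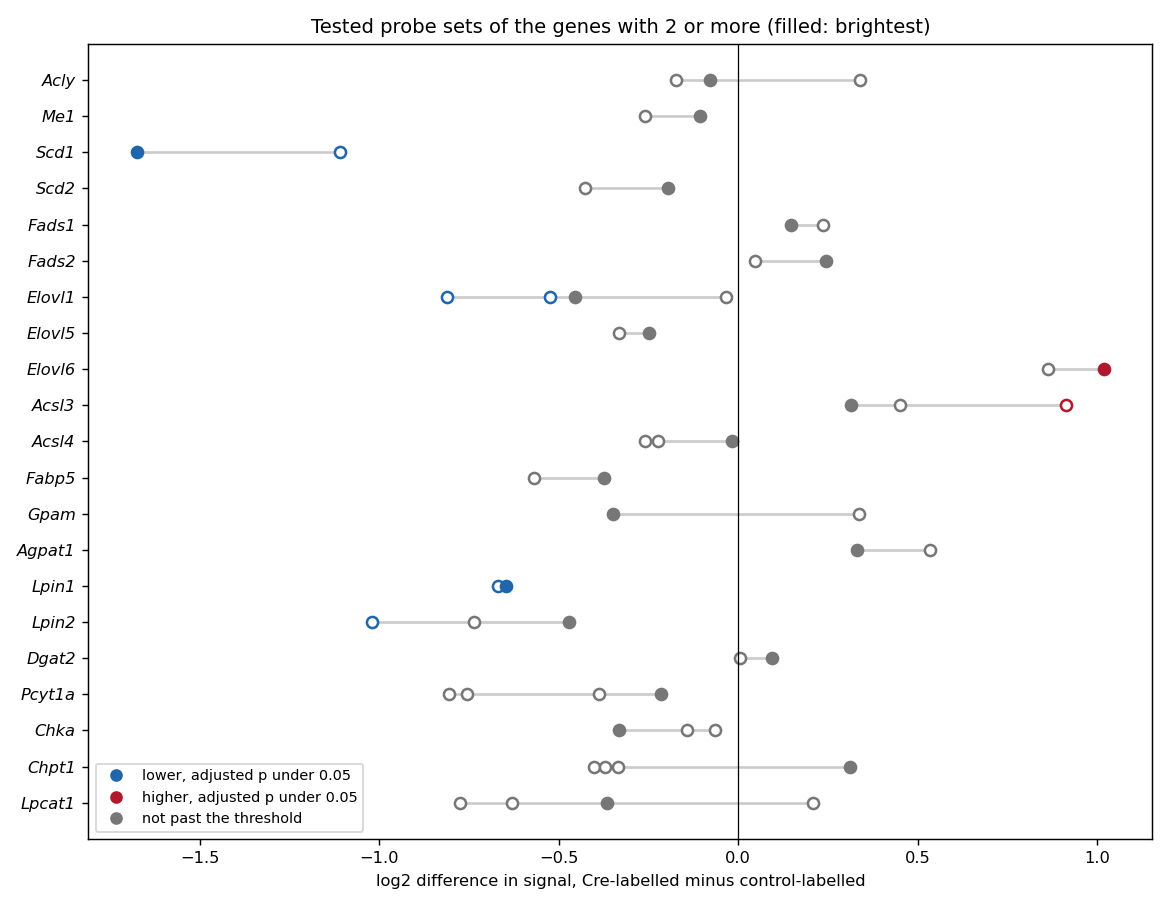
Log2 difference, Cre-labelled minus control-labelled (horizontal axis), of every tested probe set of the 21 genes that have 2 or more; filled points are the brightest probe set, open points the others, and colour gives the call. In 17 genes all probe sets lie on 1 side of 0, and in Acly, Gpam, Chpt1 and Lpcat1 they lie on both sides.

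By probe set, 8 of the 69 tested fell and 2 rose, from 7 genes. Over the array, 2.16% of tested probe sets fell and 1.41% rose. Probe sets of 1 gene share its RNA and are no replicates of each other. Counted without a test, 15 of the 35 genes (42.9%) had a lower mean and no overlap between groups, against 16.5% of all genes, and 2 genes (5.71%), Elovl6 and Acsl3, had a higher mean and no overlap, against 15.3%. The 15 genes reached from Acsl5, at -0.12 ± 0.09 SE, to Scd1.

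The promoters of the genes with a called probe set, and that of Pcyt1a, were searched for the letters of regulatory motifs, because these genes moved in both directions. Elovl1, Lpin2 and Pcyt1a have several starts, and of these only Pcyt1a is printed, by its first start. RefSeq (GRCm38.p6) promoters were at hand for 28 of the 35 genes, 42 sequences in all, Scd1 not among them. The 250 bases before each start were searched on both strands for TCACNCCAC (the core of the sterol regulatory element), TTGGCA (an arm of the nuclear factor I palindrome), TTGCNNAA (C/EBP), CCAAT and GGGCGG (the GC box), which can overlap each other. Capitals mark every match in the sequences that follow, which run 5' to 3' on the strand of the gene. Fasn fell:
Fasn, chr11:120824548-120824797, minus strand: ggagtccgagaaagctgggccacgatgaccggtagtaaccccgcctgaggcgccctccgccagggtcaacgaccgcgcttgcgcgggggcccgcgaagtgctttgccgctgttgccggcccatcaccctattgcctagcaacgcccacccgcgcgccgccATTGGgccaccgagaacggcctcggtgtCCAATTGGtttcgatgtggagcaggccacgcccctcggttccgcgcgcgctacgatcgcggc
Lpin1 fell as well and held no match:
Lpin1, chr12:16610967-16611216, minus strand: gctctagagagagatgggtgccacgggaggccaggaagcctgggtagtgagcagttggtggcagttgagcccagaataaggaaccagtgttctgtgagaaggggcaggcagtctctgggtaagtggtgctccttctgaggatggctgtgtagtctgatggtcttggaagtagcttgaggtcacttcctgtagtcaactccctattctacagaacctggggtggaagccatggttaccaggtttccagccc
Elovl6 rose and held no match:
Elovl6, chr3:129532136-129532385, plus strand: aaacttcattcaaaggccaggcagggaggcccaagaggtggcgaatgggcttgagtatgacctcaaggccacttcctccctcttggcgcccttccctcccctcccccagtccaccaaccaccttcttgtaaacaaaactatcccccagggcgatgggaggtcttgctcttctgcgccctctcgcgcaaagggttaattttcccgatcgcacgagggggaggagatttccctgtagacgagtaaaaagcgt
Acsl3 rose by 1 of its probe sets:
Acsl3, chr1:78657575-78657824, plus strand: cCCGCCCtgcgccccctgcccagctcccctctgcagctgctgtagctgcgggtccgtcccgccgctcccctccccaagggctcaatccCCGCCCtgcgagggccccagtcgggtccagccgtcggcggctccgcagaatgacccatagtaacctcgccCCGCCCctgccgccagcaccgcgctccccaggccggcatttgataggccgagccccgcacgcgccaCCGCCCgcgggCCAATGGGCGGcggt
Pcyt1a did not pass and is shown for the sterol regulatory element core, which lies before 2 of its starts in overlapping windows, of which the first is printed:
Pcyt1a, chr16:32430671-32430920, plus strand: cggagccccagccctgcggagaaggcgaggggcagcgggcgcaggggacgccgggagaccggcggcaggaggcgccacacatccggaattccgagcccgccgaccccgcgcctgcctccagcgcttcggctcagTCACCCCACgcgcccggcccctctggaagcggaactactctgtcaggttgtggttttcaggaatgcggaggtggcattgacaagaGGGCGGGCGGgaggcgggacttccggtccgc
In the Fasn promoter, CCAAT stood on the minus strand 90 to 86 bases before the start, on the plus strand 62 to 58 bases before it and on the minus strand 59 to 55 bases before it, the last overlapping the one before. The sterol regulatory element core was found for Pcyt1a, 116 to 108 bases before this start, and for Mlxipl. It was present in 3 of the 42 sequences (7.14%), 2 of which are overlapping windows of Pcyt1a, and in 1.05% of all 32851 RefSeq promoters. TTGGCA was in 7.14% of the 42 and 12.3% of all, TTGCNNAA in 4.76% and 9.56%, CCAAT in 47.6% and 33.8%, and GGGCGG in 61.9% and 32.7%. The 42 sequences count some genes by several starts, and the 32851 were not matched to them in base content or expression. Differences between these shares were not tested. Of the genes not printed, Elovl1 held CCAAT and GGGCGG, and Lpin2 held these and TTGCNNAA. Another start of Pcyt1a held no match. All of these are matches of letters, not sites shown to be bound.

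Another 74 genes of the same pathways were listed beside these, of which 70 had a probe set and 60 were tested. Of the 60, 4 fell (6.67%) and none rose in the limma fit; 15 had an unadjusted p under 0.05. Over all genes 3.04% fell. The 4 were Cds1, Mid1ip1, Pparg and Cebpa. The median difference of all 60 was -0.14, with 44 lower and 16 higher means.

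Cds1 encodes a CDP-diacylglycerol synthase on the way to phosphatidylglycerol, the main anionic lipid of surfactant, and read 8.47, 8.25 and 8.14 in control-labelled lungs against 7.03, 7.33 and 7.37 in Cre-labelled lungs. It fell 2.06-fold (-1.04 ± 0.14 SE, limma adjusted p = 0.0078). Its paralogue Cds2 differed by 0.07 ± 0.09 SE by its brightest probe set, and the other 5 had lower means, none past the threshold. Mid1ip1, whose protein binds acetyl-CoA carboxylase and promotes its activity, read 9.87, 9.99 and 10.05 against 9.48, 9.31 and 8.99 (-0.71 ± 0.13 SE, limma adjusted p = 0.023).

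Among the regulators, Pparg, the adipogenic nuclear receptor that also marks lipofibroblasts, read 5.54, 5.52 and 5.40 against 4.34, 4.49 and 4.28 (-1.12 ± 0.21 SE, limma adjusted p = 0.025). Cebpa, a factor required for type II cell maturation, read 8.48, 8.63 and 8.63 against 8.21, 7.95 and 7.67 (-0.64 ± 0.14 SE, adjusted p = 0.042). Nearest to the threshold of those that did not pass were the lipid phosphatase genes Plpp3 (-0.54 ± 0.15 SE by the brightest probe set, limma adjusted p = 0.080) and Plpp1 (-0.41 ± 0.12 SE), the acetyl-CoA synthetase gene Acss2 (-0.41 ± 0.11 SE) and Fads3 (-0.45 ± 0.13 SE). A second probe set fell for Plpp3 (-0.74 ± 0.14 SE, adjusted p = 0.026) and for Fads3 (-0.69 ± 0.11 SE, adjusted p = 0.014). Insig1, which responds to sterols with Srebf1 and Srebf2, differed by -0.34 ± 0.11 SE (adjusted p = 0.12).

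Markers of several lung cell types differed between the groups, not those of the lipid-making cells alone. Of 11 alveolar type II markers, 5 fell (Sftpa1, Sftpb, Sftpd, Abca3 and Lyz2) and 6 did not pass. Their differences ran from -1.41 for Sftpd to 0.41 for Etv5, with Sftpc, the type II cell's defining surfactant protein gene, at -0.07 ± 0.30 SE (limma adjusted p = 0.93). The mean of the list was 11.05 to 11.57 on control-labelled and 10.55 to 10.72 on Cre-labelled arrays. Of 7 lipofibroblast markers, 4 fell (Pparg, Cd36, Slc7a10 and Inmt), while Plin2, which coats lipid droplets, differed by -0.08 ± 0.11 SE. Their differences ran from -2.49 for Inmt to 0.35 for Fgf10, and the list mean was 7.89 to 8.24 and 7.07 to 7.31. Inmt averaged 6.08 in control-labelled and 3.60 in Cre-labelled lungs, the latter below the filter level of 4.0, where values are noisy. Pparg, with a Cre-labelled mean of 4.37, lay close to that level. Of 8 alveolar type I markers, 5 fell as well, with differences from -1.56 for Rtkn2 to -0.27 for Cav1, a median of -0.82 beside -0.67 for type II and -1.0 for lipofibroblast markers, and list means of 10.24 to 10.62 and 9.41 to 9.50.

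Of 8 pan-epithelial markers, Krt19 fell (-0.63 ± 0.14 SE, limma adjusted p = 0.039) and Epcam was at the upper end (0.32 ± 0.12 SE), with list means of 9.76 to 10.03 and 9.48 to 9.75. None of 8 endothelial markers passed in the limma fit, 5 having an unadjusted p under 0.05. They ran from -0.59 for Ramp2 to 0.10 for Tek, and the list means, 9.99 to 10.09 and 9.45 to 9.86, did not overlap. None of 8 macrophage markers passed either, with 1 at an unadjusted p under 0.05, from -0.42 for Fcer1g to 0.12 for C1qb. Of 4 erythroid markers, Hba-a1 and Epb42 lay below the filter level, and Alas2 (-0.63 ± 0.21 SE) and Slc4a1 (-0.61 ± 0.30 SE) did not pass. Hba-a1 was read by the only probe set that carries its symbol alone. Probe sets with several symbols were not used, so the low value does not show globin RNA to be absent. In whole lung RNA, fewer cells of a type and less RNA per cell cannot be told apart, and the part of these lists in the differences of Scd1, Fasn and Lpin1 was not tested.

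Markers of adipocytes, cardiac muscle and liver were looked at as well, since these tissues use the same enzymes. Whether their signal came from inside or outside the lung was not tested. Among 8 adipocyte markers, the defining genes Adipoq, Lep, Ucp1 and Cidec averaged 0.96, 0.74, 0.62 and 0.01 in control-labelled lungs against 1.78, -0.12, -0.55 and 1.61 in Cre-labelled lungs, and with Retn and Cidea they lay below the filter level. The other 2 markers were tested and did not pass. Fabp4, a fatty acid binding protein gene that capillary endothelium also expresses, read 8.10, 8.23 and 7.77 against 5.88, 6.79 and 7.75, lower without overlap (-1.22 ± 0.38 SE, limma adjusted p = 0.11). Lipe, the hormone-sensitive lipase gene, differed by -0.28 ± 0.29 SE. The mean of the 8 was 2.60 to 2.85 and 2.02 to 2.96. The 8 cardiac muscle markers averaged 9.90, 9.03 and 7.92 on control-labelled and 6.29, 7.37 and 8.46 on Cre-labelled arrays, so the groups overlapped but differed in mean. None of the 8 passed in the limma fit, 6 had an unadjusted p under 0.05, and differences ran from -2.87 for Nppa to -1.04 for Myl4. With this mean as a covariate, Scd1 (-1.57, limma adjusted p = 0.026) and Elovl6 (1.28, adjusted p = 0.049) passed, and Fasn (-0.64, adjusted p = 0.079) and Lpin1 (-0.85, adjusted p = 0.061) did not. The 8 liver markers averaged 1.88 to 5.93 and 2.57 to 5.13, with control-labelled replicate 2 highest; 4 of them, Serpina1b, Fgb, Apob and Apoa1, lay below the filter level, and the 4 tested ran from -0.66 for Ttr to -0.40 for Apoa2 without passing. With their mean as a covariate Scd1 passed (-1.65, adjusted p = 0.0074), while Elovl6 (1.0, adjusted p = 0.051), Fasn (-0.54, 0.064) and Lpin1 (-0.66, 0.074) did not.

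**Figure D4:**
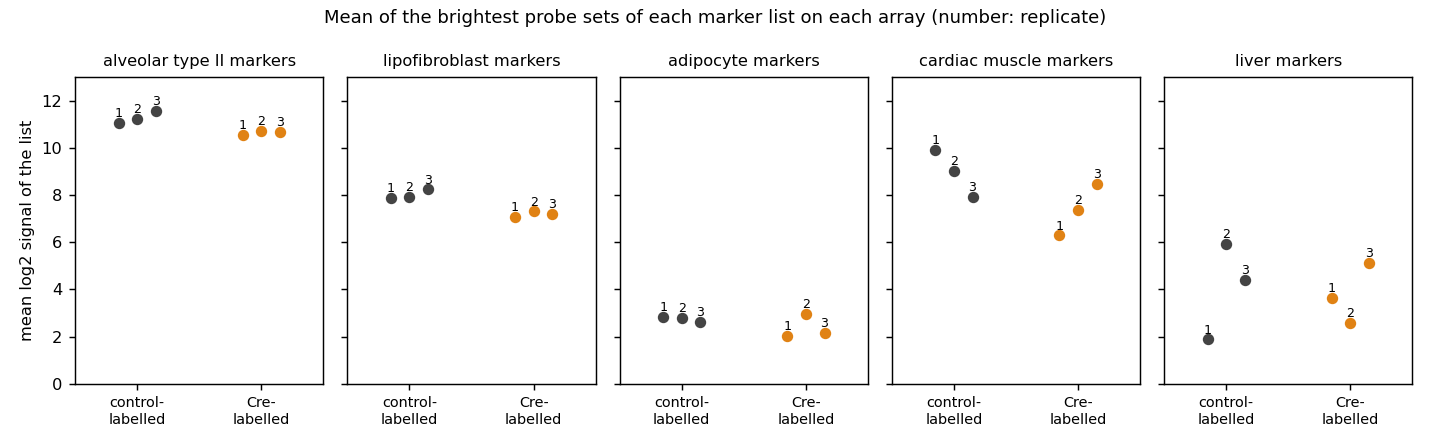
Mean log2 signal (vertical axis) of the brightest probe sets of 5 marker lists on each control-labelled and Cre-labelled array; the number at a point is the replicate. Type II and lipofibroblast means are lower on every Cre-labelled array than on any control-labelled one, adipocyte means stay between 2.02 and 2.96, and cardiac muscle and liver means vary widely within each group.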

How the data were processed

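Per the labels' protocols, RNA of 6 fetal lungs (TRIzol, then RNeasy) was biotinylated for Affymetrix arrays. MAS5 and affy are named, with no version, in the submitters' processing notes. The authors' deposited table holds log2 signals, which were used unchanged. MAS5 subtracts a background, so low values are noisy.

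Control probe sets (64 of 45101) were left out. Of the rest, 34945 carried 1 gene symbol in GEO's platform annotation, 932 several and 9160 no symbol; only the first kind was named. Probe sets whose mean over the 6 arrays reached the 40th percentile (a log2 signal of 4.0) were kept, 27022 in all. The fit used limma 3.58.1 under R 4.3.3 (lmFit, eBayes with an intensity trend, no covariates, two-sided, 4 residual and 5.32 prior degrees of freedom), with Benjamini-Hochberg adjustment and a threshold of 0.05. P-values set a difference against the spread between lungs of a group, which limma moderates with the spread of other probe sets of like signal. The brightest probe set stood for a gene. Differences within arrays were compared by exact permutation tests. The fit was tested on simulated data.

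Genes were named by a rule: all 35 measured genes, listed pathway genes that passed and the 4 nearest to passing, and the highest and lowest tested marker of each list with defining markers below the filter; Sftpc, the called type II and lipofibroblast markers, Cds2, Insig1 and Plin2 were added after their values were seen. The genes and lists were chosen with earlier results of these data known. Promoters come from RefSeq (GRCm38.p6). Plots used matplotlib 3.10.9 (Python 3.11.15). Alternatives varied the scaling, offset, filter, trend, array weights, probe set rule, threshold, arrays and covariates.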

Additional observations from a re-analysis of the deposited data

How the results depend on the processing

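Of the 21 alternative fits, 17 were planned and 4, the covariates, were chosen after seeing the data. Fetal sex is not in the labels. It was inferred for each array from whether the brightest Xist probe set lay above the middle of its range. This rule yields both sexes even if all fetuses were of the same sex, and it used no other gene. The fits with fetal sex rest on this split. All 21 kept the sign of Scd1, Fasn, Lpin1 and Elovl6. The median difference of the genes was computed in 18 of them and lay between -0.23 and -0.11. The genes lower past the threshold (3) were 6 under quantile normalization, 5 at an adjusted p of 0.10, 5 with probe sets averaged per gene, and 1, Scd1, with median scaling, no filter, no intensity trend, or fetal sex, cardiac or liver markers as a covariate. Genes higher (1) were 2 with probe sets averaged per gene and 0 with no intensity trend or liver markers. Lower probe sets of these genes (8) were 13 under quantile normalization, 13 at an adjusted p of 0.10, 4 with no filter, and 2 with no intensity trend, fetal sex or liver markers. Higher ones (2) were 1 with no filter or cardiac markers and 0 with no intensity trend or liver markers. Other pathway genes lower (4) were 9 at an adjusted p of 0.10, 8 with probe sets averaged per gene, 2 with no intensity trend and 1 with liver markers. Over the array (963), 171 probe sets passed with no intensity trend, 2120 at an adjusted p of 0.10, 587 with fetal sex, 341 with cardiac and 447 with liver markers. The cause of these changes was not tested.

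Without 1 array, 1 gene was lower, 0 to 1 higher, 1 to 4 probe sets lower and 0 to 2 higher, 1 to 3 other pathway genes lower, and 308 to 499 probe sets passed over the array. These fits have fewer samples. Deviations of same-numbered lungs correlated at -0.01, 0.20 and 0.14, 3 of the 6 arrays correlated best with their own number, and the numbers were not taken as pairs. Some values did follow the number. The median log2 signal was lowest on replicate 2 of each group (4.85 and 4.80), as were the dimmer Chka probe sets. The 3' to 5' Actb difference was highest on replicate 3 of each group (0.52 and 0.83). Whether same-numbered lungs share a litter or batch is not in the labels and was not tested. With a replicate block, 4 genes were lower, Lpin2 added (adjusted p = 0.048), and 1 higher, and 1309 probe sets passed over the array. With 64 added to each linear signal, Scd1 was at -1.59 and Elovl6 at 0.67. The number of arrays limits what can be called.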
